A study of Mus musculus with 6 samples.

Results

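The transcription factor p53, encoded in the mouse by *Trp53*, and 9 of its best known target genes were examined in the sciatic nerve of newborn mice. The 10 genes (*Trp53*, *Mdm2*, *Cdkn1a*, *Ccng1*, *Bbc3*, *Pmaip1*, *Bax*, *Zmat3*, *Phlda3* and *Eda2r*) were chosen by name, with earlier results of these data known. Each matched a single gene among the 59485 in the deposited table. All 10 also lay among the 25802 genes that were tested, those whose mean reached 10 in the controls or in the mutants. Sciatic nerves were collected at postnatal day 4, and 1 animal gave each of 3 control and 3 mutant RNA-seq libraries. Controls are labelled wild-type. By the methods of the study, wild-types carried no Cre but did carry floxed alleles and the tracer (Adar1fl/fl;R26R or Adar1fl/+;R26R). Mutants are labelled Ht-PA-Cre; Adar1fl/fl;R26R, in which a Cre driven by the promoter of human tissue plasminogen removes floxed *Adar* alleles (the gene of the RNA-editing enzyme ADAR1) in neural crest cells, and R26R is a YFP tracer of these cells. Schwann cells of the nerve derive from the neural crest, whereas its endothelial and blood cells do not, so the deletion was aimed at a part of the cells in each sample.

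p53 is held at a low level by MDM2, a ubiquitin ligase whose gene p53 itself activates, and stress signals release p53 by blocking that degradation. Because the control acts largely on the protein, the mRNA of *Trp53* does not report p53 activity, and the mRNAs of its targets are commonly read in its place. The targets fall into branches, of which *Cdkn1a* (p21) stops the cell cycle, *Bbc3* (PUMA), *Pmaip1* (NOXA) and *Bax* act at the mitochondrion in apoptosis, and *Mdm2* and *Ccng1* feed back on p53.

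A p53 response element consists of a pair of decamers, each with a conserved 4-base core. A search of the RefSeq promoter windows of GRCm38.p6 (250 bases before to 50 after an annotated start) allowed 3 mismatches outside the cores and no spacer, on both strands. Windows were present for 8 of the 10 genes, 11 windows in all, and *Pmaip1* and *Zmat3* had none in the RefSeq table used. A match was found in 3 of these 11 windows, and in 0.572% of all 32851 promoter windows. These matches, in *Cdkn1a*, *Bbc3* and *Trp53*, are shown with the element in capitals and 5 bases on either side.
Cdkn1a: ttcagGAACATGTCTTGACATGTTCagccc
Bbc3: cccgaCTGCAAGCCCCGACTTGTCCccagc
Trp53: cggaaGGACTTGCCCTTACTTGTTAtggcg
All 3 genes are on the plus strand, which is the strand printed, and each element lies upstream of the RefSeq start of its window. The element pattern is its own reverse complement, so a site has no strand of its own. The *Cdkn1a* element (chr17:29090928-29090947, outside the gene in GENCODE) ends 31 bases before the start and has 1 mismatch, as few as in 18 of all windows (0.0548%). The *Bbc3* element (chr7:16309486-16309505, within an intron of the gene in GENCODE, whose span begins further upstream) has 3 mismatches and lies 77 bases before the start. The *Trp53* element (chr11:69580284-69580303, outside the gene) also has 3 mismatches and lies 55 bases before the start. No match was found in the other *Cdkn1a* window (chr17:29093519-29093818) or in the other *Bbc3* windows (chr7:16310011-16310310 and chr7:16310181-16310480), which belong to other annotated starts. Of the 2 shorter motifs searched on both strands, the first was CATG followed after any 6 bases by CATG, which lies within the *Cdkn1a* element. It occurred in that *Cdkn1a* window alone among the 11 and in 0.712% of all windows. The interferon-stimulated core, GAAA followed after any 2 bases by GAAA, occurred in 0 of the 11 windows and in 3.44% of all, which says nothing of sites outside these windows.

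The 250 bases upstream of the start of the matching window are given for the genes of the arrest and the apoptosis branch. These are *Cdkn1a* (chr17:29090729-29090978, plus strand, GC content 54%) and *Bbc3* (chr7:16309333-16309582, plus strand, GC content 76.4%), again with the element in capitals.
Cdkn1a: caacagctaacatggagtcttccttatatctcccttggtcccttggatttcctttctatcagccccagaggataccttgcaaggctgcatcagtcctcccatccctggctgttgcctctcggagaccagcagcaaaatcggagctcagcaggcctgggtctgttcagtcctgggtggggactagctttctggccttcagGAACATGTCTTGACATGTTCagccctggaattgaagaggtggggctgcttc
Bbc3: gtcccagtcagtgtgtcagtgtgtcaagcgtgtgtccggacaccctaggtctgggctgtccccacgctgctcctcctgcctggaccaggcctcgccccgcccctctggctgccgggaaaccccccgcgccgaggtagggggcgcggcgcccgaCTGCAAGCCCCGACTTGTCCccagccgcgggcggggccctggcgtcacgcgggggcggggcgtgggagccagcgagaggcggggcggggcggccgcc

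Values are normalised read counts, that is, reads on a gene divided by a size factor of its library, and 1 read was worth between 0.727 and 1.27. The libraries held 50938349 to 78250094 reads on genes. Fold changes are mutant minus control on the scale of log2(value + 1) from limma, which understates changes of genes with few reads, with p-values adjusted across the 25802 genes by the Benjamini-Hochberg method. Past the threshold means a 2-fold or larger change together with an unadjusted p of 0.05 or less, as the study set it. Errors are SDs over 3 libraries unless stated otherwise. In each control-labelled library *Adar* was lower than in each mutant-labelled one, 1601 ± 467 against 10284 ± 1306 (log2 fold change 2.72, adjusted p = 4.1e-05). A rise is not what the labelled deletion implies, and with 1 value per gene the floxed segment could not be examined on its own, so every direction below is that of the mutant-labelled against the control-labelled libraries.

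The nerves differed in much more than p53 genes. Summed Schwann cell markers were 1137710 to 1507640 in the controls and 61519 to 216021 in the mutants, with 4 of 8 markers lower past the threshold, and erythroid markers were 54935 to 76999 against 5133 to 15724 (5 of 6 lower). Of the fibroblast and macrophage markers, 3 of 6 and 3 of 8 were lower past the threshold, and 1 macrophage marker was higher. Skeletal muscle markers were 6376 to 31200 against 41070 to 303164 (6 of 8 higher), neuronal markers 1569 to 1969 against 4220 to 4555 (4 of 6 higher), and T and NK cell markers 112 to 217 against 417 to 570 (5 of 7 tested higher). Neither an endothelial nor a B cell marker passed the threshold, 1 of 6 perineurial markers was lower, and 1 of 6 of pericytes and smooth muscle was higher. No marker was listed at 0 in all libraries. In bulk nerve, fewer cells of a type and less RNA per cell cannot be told apart, and the part of these shifts in the p53 genes was not tested.

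By adjusted p (limma, 0.05 or less), 8 of the 10 genes were higher in the mutants and 0 were lower, where 19.0% of all tested genes were higher and 16.0% lower. An unadjusted p of 0.05 or less was reached by 9 genes upwards and 0 downwards, and by 24.2% and 20.8% of all tested genes. On the recovered reads, edgeR and DESeq2 gave the same 4 counts of the 10 genes. The largest rises were those of *Pmaip1*, *Eda2r* and *Bbc3*, the 3 of 10 past the threshold, which 13.9% of all tested genes passed upwards and 10.4% downwards. *Mdm2*, *Phlda3*, *Ccng1*, *Trp53* and *Bax* rose by less than 2-fold. *Cdkn1a* and *Zmat3* did not pass the adjusted p. With all libraries scaled to the same total, *Mdm2* (1.02) and *Phlda3* (1.01) reached 2-fold and *Zmat3* passed (adjusted p = 0.0142, limma), while *Cdkn1a* did not. The median log2 fold change of the 10 genes was 0.77, against 0.03 over all tested genes. Control and mutant libraries did not overlap in 9 of the 10 genes, all higher, which held for 25.9% of tested genes. Because these genes and the lists below were chosen with earlier results known, such counts describe them and do not test them. For 6 of the 10 (*Mdm2*, *Cdkn1a*, *Ccng1*, *Bbc3*, *Zmat3* and *Phlda3*) the table also holds a gene on the opposite strand, and as the use of strand in the counting is not given, reads of the 2 genes may not be separated.

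**Figure D1:**
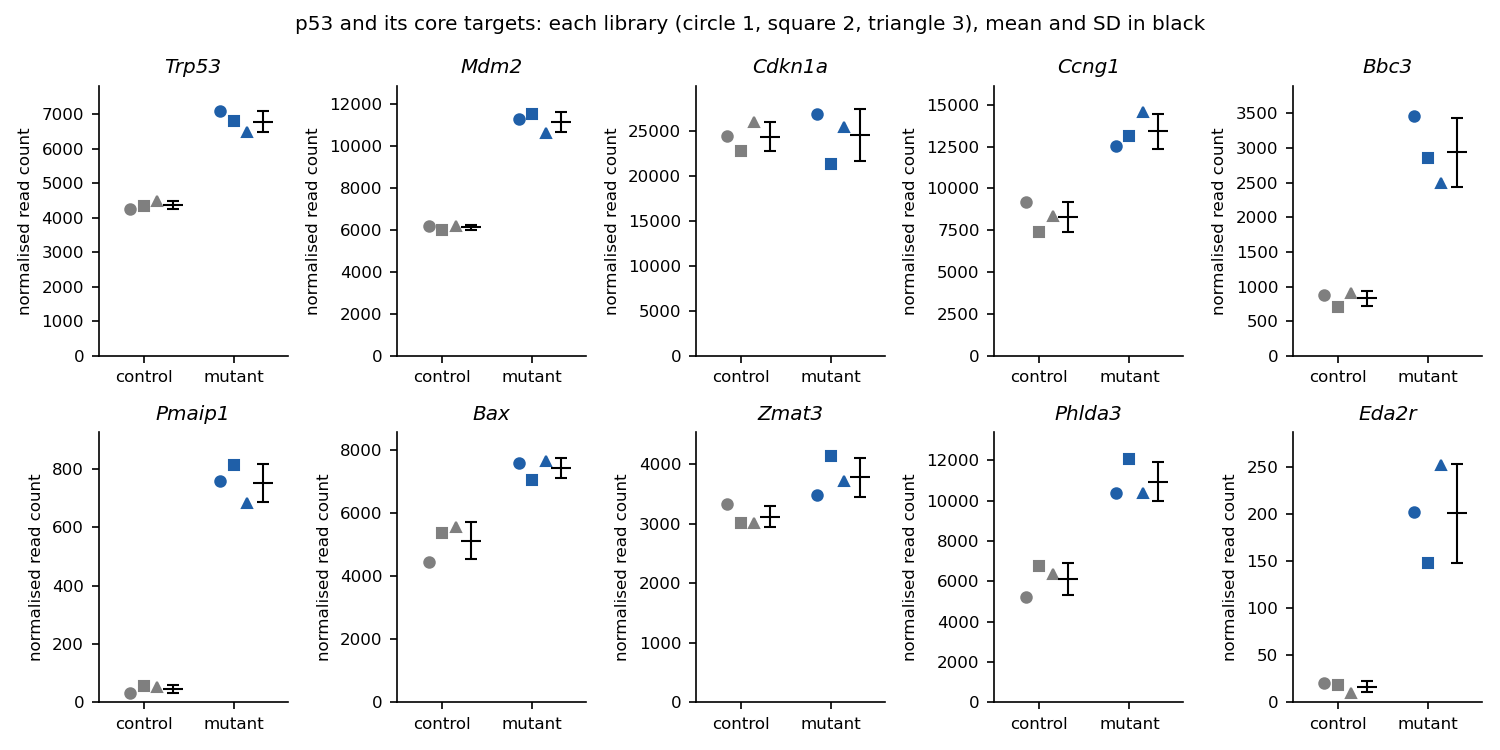
Normalised read count (vertical axes, each from 0) of the 10 genes in the 3 control (grey) and 3 mutant (blue) libraries, with the mean and SD in black. The groups overlap for Cdkn1a and are apart, with higher values in the mutants, for the other 9 genes.

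*Trp53* (GSMG0005408, chr11:69580359-69591873, plus strand) had values of 4243, 4347 and 4480 in control libraries 1, 2 and 3, and of 7083, 6799 and 6471 in mutant libraries 1, 2 and 3. The lowest mutant library thus exceeded the highest control, and the spread within a genotype was small, with coefficients of variation of 2.72% and 4.52%. The mRNA of p53 itself rose 1.56-fold by the means (log2 fold change 0.64, standard error 0.08, 95% confidence interval 0.44 to 0.83, adjusted p = 0.000703). An unnamed gene, GSMG0005409, overlaps *Trp53* on the same strand, so the counting could have split reads between them.

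*Mdm2* (chr10:117688876-117710758, minus strand), the negative regulator and target of p53, had 6205, 6001 and 6174 in controls and 11275, 11530 and 10591 in mutants. Its groups were far apart for their spread, and its rise of 1.82-fold by the means (log2 fold change 0.86, standard error 0.08, adjusted p = 0.00012) had an interval of 0.68 to 1.05 that reaches the 2-fold limit. *Ccng1* (chr11:40748554-40755286, minus strand), encoding cyclin G1, which directs a phosphatase to MDM2, had 9201, 7418 and 8337 in controls and 12511, 13130 and 14568 in mutants. It rose by 0.69 on the log2 scale (adjusted p = 0.00157), and all mutants exceeded all controls. Relative to *Trp53* in the same library, *Mdm2* was 1.41 ± 0.05 in controls and 1.64 ± 0.05 in mutants, without overlap. An exact two-sided permutation test of 3 against 3 libraries gave p = 0.1, the smallest it can give, for this ratio and for each of the 7 ratios computed between genes (adjusted p = 0.1). These ratios compare libraries, and they are not relative levels of the 2 genes, since values are not per length. They restate the changes of the single genes and are no separate result.

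*Cdkn1a* (chr17:29090979-29100722, plus strand), the gene of the cell cycle inhibitor p21, had 24456, 22736 and 25944 in controls and 26884, 21301 and 25491 in mutants. Both the highest and the lowest library were mutants. The log2 fold change was 0.01 with a standard error of 0.11 and an interval of -0.24 to 0.26 (adjusted p = 0.975), so that a fold change of the mutants over the controls below 0.845 or above 1.19 lies outside the 95% interval. Its absolute change was larger than that of only 0.593% of tested genes. The ratio of *Cdkn1a* to *Trp53* in a library was 5.60 ± 0.32 in controls and 3.62 ± 0.43 in mutants, without overlap. This difference restates the rise of *Trp53*, since *Cdkn1a* itself had a log2 fold change of 0.01.

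*Bbc3* (chr7:16309583-16318334, plus strand), encoding the BH3-only protein PUMA, which binds all the anti-apoptotic BCL2 proteins, had 874, 712 and 911 in controls and 3467, 2848 and 2492 in mutants. The lowest mutant was well above the highest control. *Bbc3* rose 3.53-fold by the means (log2 fold change 1.81, standard error 0.16, interval 1.46 to 2.17, adjusted p = 7.72e-05). The ratio of *Bbc3* to *Cdkn1a* in a library was 0.0341 ± 0.0024 in controls and 0.120 ± 0.020 in mutants, so the ratio of the apoptosis gene to the arrest gene was 3.53 times as high in the mutants. Against *Trp53* the ratio of *Bbc3* was 0.191 ± 0.024 and 0.431 ± 0.053.

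*Pmaip1* (chr18:66458532-66465558, plus strand) encodes NOXA, a BH3-only protein that binds chiefly MCL1. Its values were 31.1, 56.7 and 53.2 in the controls, resting on 28, 60 and 42 reads, and 760, 812 and 682 in the mutants, resting on 1045, 842 and 690 reads. Every mutant library was an order of magnitude above every control. The log2 fold change of 4.01 (standard error 0.28, interval 3.37 to 4.66, adjusted p = 2.88e-05) was the largest of the 10 genes and stood at rank 644 of the 25802 tested genes by signed change.

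*Bax* (chr7:45461695-45466898, minus strand), encoding the effector that opens the outer mitochondrial membrane, had 4448, 5375 and 5547 in controls and 7601, 7060 and 7636 in mutants. Control library 1 was the lowest, and the groups did not overlap. *Bax* rose by 0.54 on the log2 scale (standard error 0.11, adjusted p = 0.00519), a smaller change than that of either BH3-only gene above, although these differences between genes were not tested.

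*Phlda3* (chr1:135766085-135769133, plus strand), encoding an inhibitor of AKT at the membrane, had 5237, 6748 and 6391 in controls and 10377, 12053 and 10397 in mutants. It rose by 0.84 on the log2 scale (standard error 0.12, interval 0.57 to 1.11, adjusted p = 0.00097), and a gene on the same strand overlaps it. *Zmat3* (chr3:32334792-32365665, minus strand), encoding an RNA-binding zinc finger protein, had 3328, 3012 and 3016 in controls and 3486, 4135 and 3709 in mutants. The groups did not overlap, but mutant library 1 lay close to control library 1, and the log2 fold change of 0.27 (standard error 0.10, interval 0.04 to 0.51) had an adjusted p of 0.070 (limma).

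*Eda2r* (chrX:97333837-97377216, minus strand) encodes the receptor of ectodysplasin A2, a member of the TNF receptor family. Its values were 21.1, 18.9 and 10.1 in the controls, resting on 19, 20 and 8 reads, and 202, 148 and 252 in the mutants, resting on 278, 153 and 255 reads. All mutants lay above all controls, and the log2 fold change was 3.54 (standard error 0.43, interval 2.55 to 4.52, adjusted p = 0.000455), the widest interval of the 10 genes. High *Xist* marked 2 of the 3 controls and 1 of the 3 mutants. The skeletal muscle markers summed to 94896, 41070 and 303164 in mutants 1, 2 and 3, the order that *Eda2r* followed there, and to 31200, 6376 and 23987 in the controls, where *Eda2r* did not follow it. The part of sex and of muscle tissue in the *Eda2r* values was not tested.

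**Figure D2:**
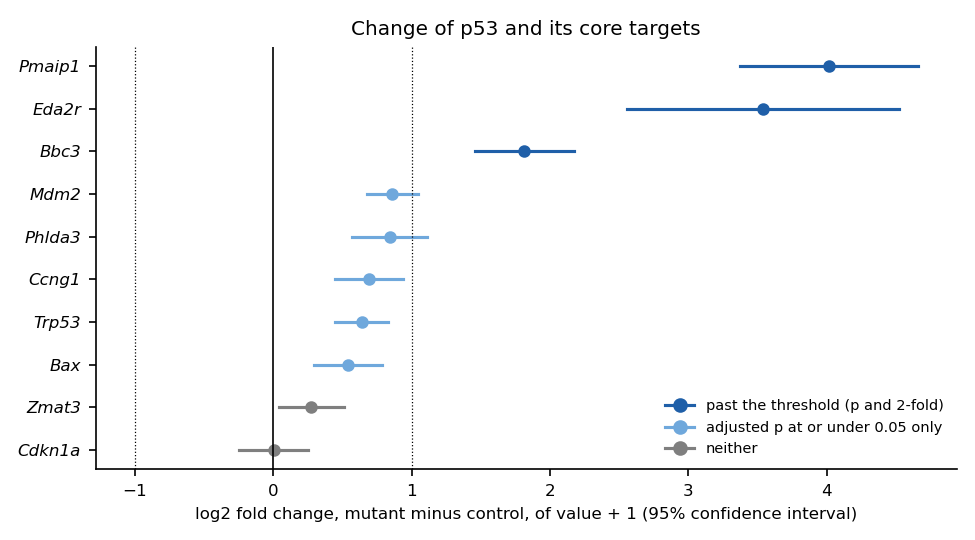
Log2 fold change of value + 1, mutant minus control, with 95% confidence intervals from limma (horizontal axis) for the 10 genes, ordered by size, with dotted lines at 2-fold. The 3 genes past the threshold (dark blue) run from 1.81 to 4.01, 5 genes with an adjusted p at or under 0.05 (light blue) from 0.54 to 0.86, and Zmat3 and Cdkn1a (grey) sit at 0.27 and 0.01.

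The genes nearest in pattern were those with the smallest root mean square difference from a member in log2(value + 1) over the 6 libraries, after centring each gene on its mean. For *Trp53* these were *Chmp4b* (0.031), *Ssrp1* (0.033) and *Atf1* (0.034), and for *Cdkn1a* they were *Ddx55* (0.039), *Optn* (0.045) and *Ngfr* (0.045). The nearest to *Bbc3* were *Relb* (0.114), *Adgre5* (0.131) and *Has2* (0.134), at a greater distance than those of *Trp53* and *Cdkn1a*. *Relb* had 1147, 1128 and 1332 in controls and 5495, 4546 and 4159 in mutants, and as with *Bbc3* its highest value was in mutant 1 and its lowest mutant value in mutant 3. With 6 libraries in 2 groups, likeness mostly reflects the size of the difference between genotypes.

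Genes that act on p53 moved upwards or did not pass the test. Of 16 regulators and relatives, 8 were higher and 0 lower by adjusted p, beside 19.0% and 16.0% of all tested genes, and 3 were higher past the threshold, beside 13.9% (median log2 fold change 0.46). At an unadjusted p of 0.05 or less, 10 were higher and 0 lower (24.2% and 20.8% of all tested genes), and by adjusted p edgeR called 8 higher and DESeq2 10, both with 0 lower. *Daxx*, encoding a chaperone of histone H3.3 that also binds MDM2, had 2462, 2904 and 2599 in controls and 14926, 10049 and 11916 in mutants (log2 fold change 2.20, adjusted p = 2.3e-05). *Chek1*, encoding the checkpoint kinase CHK1, rose by 1.15 (adjusted p = 0.00416), with 549, 476 and 446 in controls and 1087, 1448 and 806 in mutants. The spread of the mutants was wide for *Chek1*, and without mutant library 2 its change was 0.94, short of the 2-fold limit. *Trp63*, a relative of p53, rose from 8.88, 2.83 and 15.2 to 30.6, 81 and 131 (log2 fold change 3.04, adjusted p = 0.0153), and its standard error was 0.76. Without mutant library 2 or mutant library 3 the adjusted p of *Trp63* was 0.0537 or 0.0676 (limma). *Trp73*, the other relative, overlapped between the groups with 4.44, 18.9 and 57.0 against 1.45, 16.4 and 15.8 (adjusted p = 0.50). *Mdm4*, encoding the partner of MDM2, rose by 0.59 (adjusted p = 0.039), a call that was lost with the same 75th percentile (0.0590), with eBayes without trend (0.0820) and without any single library but control 1 (adjusted p of 0.0522 to 0.120, limma). *Cdkn2a*, whose ARF product blocks MDM2, had a log2 fold change of 0.87 with an adjusted p of 0.0552, and of 0.0268 with the same total, 0.0448 with a minimum mean of 50 and 0.0387 with DESeq2.

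Of 26 further targets, 13 were higher and 4 lower by adjusted p, 12 and 2 past the threshold, and 9 did not pass the adjusted p (median log2 fold change 0.67). Among all tested genes, 19.0% were higher and 16.0% lower by adjusted p, and 13.9% and 10.4% past the threshold. The 4 largest changes of the list were rises. *Gdf15*, encoding a secreted cytokine of the TGF-β family, had 13.3, 35.9 and 21.5 in controls and 2592, 2566 and 1666 in mutants (log2 fold change 6.61, standard error 0.36, adjusted p = 9.69e-06). *Gadd45a*, a growth arrest and DNA damage gene, went from 150, 207 and 242 to 3628, 3580 and 4612 (log2 fold change 4.31, adjusted p = 4.37e-06). *Sesn2*, encoding the leucine sensor Sestrin 2, went from 329.8, 185.2 and 183.7 to 2027, 1622 and 1853 (3.02), and the death receptor gene *Fas* from 95.5, 96.4 and 115 to 669, 832 and 825 (2.91). *Pik3r2* overlaps *Gdf15* on the same strand, and an unnamed gene overlaps *Sesn2*, so reads could be split there, as they could for *Mdm4*, *Trp63*, *Bcl2* and *Bcl2l1*, which unnamed genes overlap on the same strand. For *Gdf15*, *Gadd45a*, *Sesn2* and *Fas* alike, the lowest mutant was more than 4 times the highest control.

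The fallers were chosen for mention after their values were seen. *Sesn1*, the paralog of *Sesn2*, had 4777, 4326 and 3974 in controls and 1178, 919 and 987 in mutants and fell by 2.09 on the log2 scale (adjusted p = 1.6e-05), so the paralogs moved in opposite directions. On the same strand, 3 genes overlap *Sesn1*. *Fdxr*, encoding the mitochondrial ferredoxin reductase, fell by 1.30, *Ccng2*, encoding cyclin G2, by 0.72 and *Ei24* by 0.66 (adjusted p = 0.00057, 0.00932 and 0.00132). *Ccng2* thus moved against *Ccng1*.

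**Figure D3:**
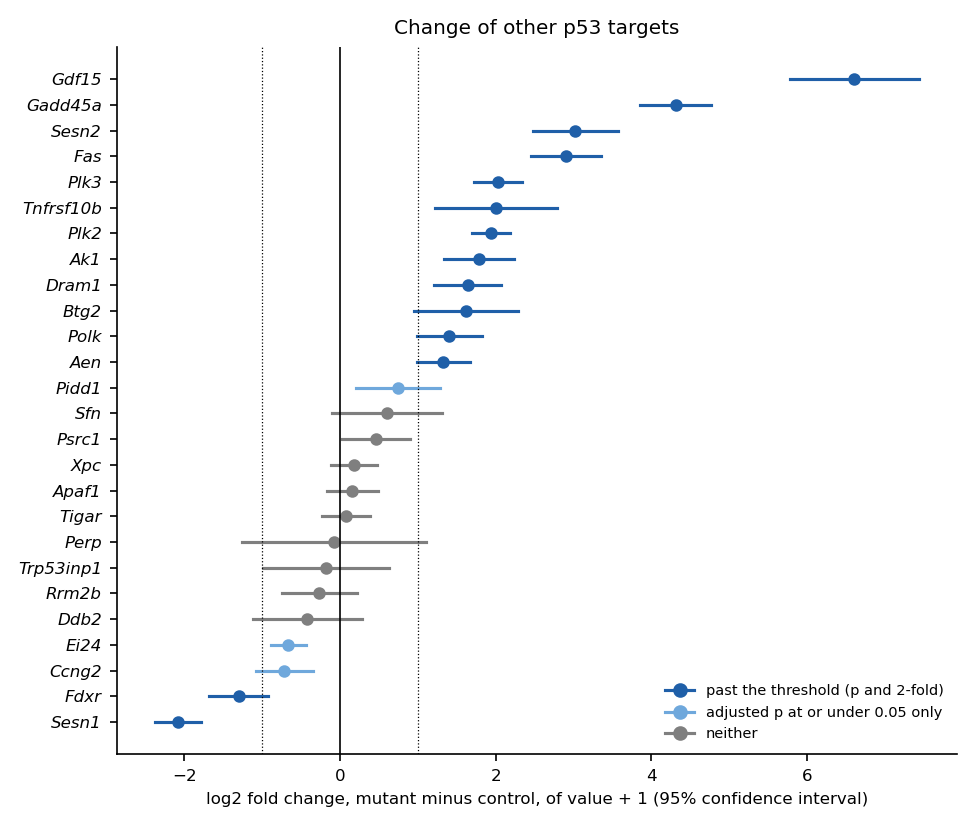
Log2 fold change of value + 1, mutant minus control, with 95% confidence intervals from limma (horizontal axis) for 26 further p53 targets, ordered by size, with dotted lines at 2-fold. Dark blue marks 14 genes past the threshold, 12 of them higher, from Gdf15 at 6.61 down to Sesn1 at -2.09.

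The arrest branch was looked at in the genes beside p21. Of 16 CDK inhibitors and G1 genes, 6 were higher and 5 lower by adjusted p, and 3 and 2 past the threshold (median log2 fold change -0.06). All tested genes had shares of 19.0% and 16.0% by adjusted p, and of 13.9% and 10.4% past the threshold, to which the threshold counts of the list are close. *Cdkn1c*, encoding p57, had 26910, 29801 and 22996 in controls and 11020, 7771 and 6847 in mutants and fell by 1.66 (adjusted p = 0.000231). *Ccnd2*, encoding cyclin D2, rose by 2.18, its kinase partner gene *Cdk6* by 1.83 and *Cdkn2b*, encoding p15, by 1.33 (adjusted p = 0.000107, 0.00258 and 0.000322). *Cdkn1b*, encoding p27, like p21 and p57 a CIP/KIP protein, was added here after its values were seen and went from 21777, 19861 and 20701 to 12436, 9451 and 11058, a fall of 0.93 (adjusted p = 0.000436).

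Of 20 proliferation genes that are repressed through p21 and the DREAM complex, 0 passed the threshold with limma, edgeR or DESeq2, where 13.9% of all tested genes were higher and 10.4% lower with limma. By adjusted p 6 were higher and 1 lower, beside 19.0% and 16.0% of all tested genes, and the counts were the same at an unadjusted p of 0.05 or less, beside 24.2% and 20.8%. The median log2 fold change was 0.03, as over all tested genes. *Mki67*, the common marker of cycling cells, had 4032, 4771 and 5011 in controls and 4920, 6203 and 2875 in mutants, with the extremes of all 6 libraries among the mutants (adjusted p = 0.905, log2 fold change -0.05, which changed sign under 3 other settings). The 6 higher genes, named after their values were seen, were *Mybl2* (0.91), *Aurka* (0.69), *Mcm5* (0.61), *E2f1* (0.60), *Pcna* (0.46) and *Mcm2* (0.46), and the adjusted p-values ran from 0.00662 to 0.0444 (limma). *Cdc20*, an activator of the anaphase-promoting complex and the 1 gene that was lower, fell by 0.86 (adjusted p = 0.0303) with overlapping groups. Its call was lost with the same total (adjusted p = 0.0547), with eBayes without trend (0.107), and without control 2, control 3, mutant 1 or mutant 3 (0.0763 to 0.101, limma).

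Of 13 other genes of the BCL2 family, 5 were higher and 2 lower by adjusted p, and 3 and 2 past the threshold (median log2 fold change -0.14). Over all tested genes the shares were 19.0% and 16.0% by adjusted p and 13.9% and 10.4% past the threshold, and the counts of lower genes are close to these. *Bid*, encoding a BH3-only activator of BAX, had 203, 147 and 118 in controls and 1229, 1097 and 1181 in mutants (log2 fold change 2.93, adjusted p = 3.8e-05). *Bcl2a1a*, an anti-apoptotic gene with near-identical copies among which reads can be split, had 12.2, 64.3 and 13.9 against 140, 243 and 347 (3.29, adjusted p = 0.00532), and without control library 2 its log2 fold change was 4.03. *Hrk*, encoding a further BH3-only protein, had 20.0, 5.67 and 0 against 21.8, 30.9 and 35.6, a log2 fold change of 2.52 that passed the threshold but had an adjusted p of 0.104, and it did not pass with edgeR (1.76) or DESeq2 (1.77), nor when any library but control 1 was left out (1.34 without control 3, the one with 0 reads). *Bmf* and *Bcl2l11* (BIM), also BH3-only genes, fell by 1.61 and 1.19 (adjusted p = 0.00306 and 0.000279).

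Among the anti-apoptotic genes, *Mcl1* had 18061, 18936 and 18890 in controls and 27244, 26865 and 25743 in mutants and rose by 0.51 (adjusted p = 0.00137), and *Bcl2l1* (BCL-XL) rose by 0.74 (adjusted p = 0.00267). *Bak1*, encoding the other mitochondrial effector, had a log2 fold change of -0.32 (adjusted p = 0.0756), and *Bcl2* one of -0.14 (adjusted p = 0.386). The ratio of *Bax* to *Bcl2* was 1.35 ± 0.11 in controls and 2.18 ± 0.25 in mutants. For *Pmaip1* and its binding partner *Mcl1* the ratio was 0.00251 ± 0.00069 and 0.0282 ± 0.0019, and for *Bbc3* and *Mcl1* it was 0.0447 ± 0.0062 and 0.110 ± 0.016. None of the 3 ratios overlapped between the genotypes.

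**Figure D4:**
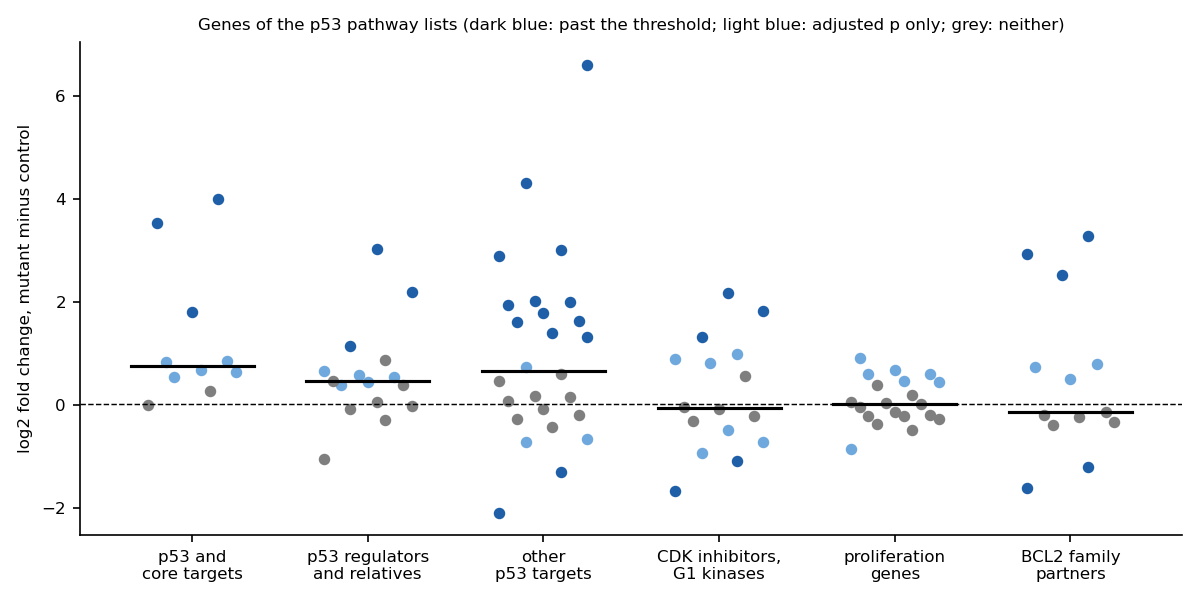
Log2 fold change, mutant minus control, of each gene (point) in 6 lists around p53 (horizontal axis), with the list's median as a bar, coloured dark blue past the threshold, light blue for an adjusted p at or under 0.05 only and grey otherwise. Medians run from -0.14 for the BCL2 family partners to 0.77 for p53 and its core targets.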

How the data were processed

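RNA-seq was carried out on whole sciatic nerves of 3 control and 3 mutant mice. Per the methods, the authors sequenced oriented poly-A cDNA, mapped reads to mm10 with STAR 2.4.0, counted those on constitutive regions of FAST DB genes, and normalised with DESeq2. Whether counting used strand is not given in the sources used here. The deposited signal is thus a count divided by a size factor, and division by the value of 1 read gave whole numbers (within 0.01) for 100% of values in every library. Intervals cover these samples only, and without molecular identifiers PCR copies cannot be told from separate molecules.

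log2(value + 1) was fitted with limma 3.58.1 in R 4.3.3 (lmFit, eBayes with trend) on all genes with a mean of at least 10 in a genotype, and p-values were adjusted by the Benjamini-Hochberg method. The members and the gene lists were chosen with earlier results of these data known. Named beside the 10 members were up to 4 genes of each list with the largest change past the threshold, the partners *Mdm4*, *Cdkn2a*, *Trp63*, *Trp73*, *Mki67*, *Bak1*, *Mcl1* and *Bcl2l1*, *Adar*, and the 3 genes nearest in pattern to *Trp53*, *Cdkn1a* and *Bbc3*. *Bcl2*, *Bcl2l11*, *Cdkn1b*, *Cdkn2c*, the proliferation genes other than *Mki67*, and the falling targets were added after their values were seen. Recomputed under 11 settings and without each library were the threshold counts of the lists and the adjusted p count of the 10 genes. The changes of most named genes were recomputed likewise. Among the settings were edgeR 4.0.16 and DESeq2 1.42.0 on the recovered reads. All other p-value counts of the lists were recomputed with these tools only. The ratios, marker sums, list medians, nearest genes and the single higher proliferation genes were not recomputed. Promoter windows are those of RefSeq, and coordinates are 1-based on mm10. The authors' RPKM filter against intergenic regions was not used here.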

Additional observations from a re-analysis of the deposited data

How the results depend on the processing

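The count of the 10 genes past the threshold was 3 in every setting but 1. Rescaling to the same total, which moved the median change over all tested genes from 0.03 to 0.20 on the log2 scale, gave 5, as *Mdm2* (1.02) and *Phlda3* (1.01) joined. The count by adjusted p was 8, or 9 with the same total, and leaving out libraries gave 3 and 8 throughout. The same 75th percentile (median of all genes -0.04) turned *Cdkn1a* to -0.0621, and without single libraries it ranged from -0.0631 to 0.105. *Mki67* turned to 0.118 with the same total, 0.0242 with edgeR and 0.0180 with DESeq2, and without single libraries it ranged from -0.286 to 0.269. *Bcl2* turned to 0.0236 with the same total. Of the proliferation genes, 1 passed the threshold with the same total, and 0 to 1 without single libraries (1 without control 1, mutant 2 or mutant 3). *Hrk* lost its call under 5 settings, edgeR and DESeq2 among them, and *Cdkn2c* (-1.08) lost its own with the same total (-0.92), without control 3 (-0.94) and without mutant 3 (-0.82). By adjusted p, *Mdm4*, *Trp63* and *Cdc20* lost their calls under the settings or left-out libraries given beside them, and *Bak1* gained one with the same 75th percentile (adjusted p = 0.0339, limma). The cause was not tested. The share of higher genes among all genes past the threshold was 57.3%, and 66.4% with the same total. Same-numbered libraries did not deviate together (correlations of -0.06, -0.06 and 0.01), so the numbers pair nothing, and with the replicate number as a block the counts of the 10 genes were again 3 and 8, and *Mdm4* had an adjusted p of 0.0736 (limma). Depth limits *Pmaip1* and *Eda2r*, with 8 to 60 reads in a control library. Separate animals per library make the p-values cover biological spread, at 3 animals a group.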
